A study of Mus musculus with 6 samples.

Results

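miR-9 was followed through both of its mature arms, mmu-miR-9-5p and mmu-miR-9-3p (below without the species prefix), in small RNA libraries of mouse spinal cord. They are 2 of the 1482 rows of the deposited table and were taken by name. The series compares cords contused at thoracic level 10 with cords exposed there without contusion, in 3 libraries per group. As deposited, the SCI label stands for a laminectomy and a moderate contusion from a 10 g weight dropped 20 mm. The control label stands for the laminectomy alone. Checks given below went against these labels. The design text gives bladder massage and antibiotics each day after surgery, and all mice were killed on day 2. Each library holds the RNA of a piece of whole cord about 1 cm long, with every cell type in it. The sources used here give no strain, sex or age. Each library is read as 1 mouse. The p-values measure the spread between these libraries, which is technical where libraries came from the same mouse or pool.

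The miR-9 hairpin is transcribed in neural cells and cut into a duplex whose strands can each be loaded into an Argonaute protein. miR-9-5p is the arm that usually dominates. In the developing nervous system it represses Hes1 and Nr2e1, which keep progenitors dividing, and in the chick spinal cord also Foxp1, which helps set motor neuron identity. miR-9-3p, also called miR-9*, acts with miR-124 on the BAF chromatin complex when progenitors become neurons. In humans the arms target REST and its partner CoREST. Both arms remain abundant in mature neural tissue.

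The arms carry different seeds, the stretch at bases 2 to 8 that pairs with target messages, so a change in their balance is a change between different sets of possible targets. The mature sequences are shown 5′ to 3′ with the seed in capitals, as given by RefSeq on GRCm38.p6.
miR-9-5p: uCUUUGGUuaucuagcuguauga
miR-9-3p: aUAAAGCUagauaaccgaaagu
Of the 1679 mature mouse names in the RefSeq table, no other carried either seed. The nearest names, miR-9b-5p to miR-9-5p and miR-9b-3p to miR-9-3p, came within 2 mismatches over 18 bases. miR-9b is annotated on the opposite strand of the same loci, and 0 rows of the table carry that name.

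There are 3 genes that make these arms. Their hairpins are shown with both arms in capitals, because the arms are the same in all of them and the reads therefore cannot be split by gene.
Mir9-1: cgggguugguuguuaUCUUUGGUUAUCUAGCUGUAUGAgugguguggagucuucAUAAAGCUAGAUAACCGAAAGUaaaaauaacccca
Mir9-2: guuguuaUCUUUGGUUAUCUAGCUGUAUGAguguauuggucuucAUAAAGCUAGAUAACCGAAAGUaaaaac
Mir9-3: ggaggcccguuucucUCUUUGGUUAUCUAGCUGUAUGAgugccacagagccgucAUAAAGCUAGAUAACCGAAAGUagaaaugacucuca
Mir9-1 lies at chr3:88215598-88215686 on the plus strand of GRCm38, in an intron of the long non-coding RNA gene Gm3764. Mir9-2 lies at chr13:83738814-83738885 on the plus strand, inside an exon of 1 of the 2 transcripts of the long non-coding RNA gene C130071C03Rik that span it. Mir9-3 lies at chr7:79505264-79505353 on the plus strand, in an intron of the long non-coding RNA gene Mir9-3hg. The lower-case loop between the arms has 16 bases in Mir9-1 and Mir9-3 and 14 in Mir9-2.

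Library totals ran from 7100472 to 8889977 counts in the SCI-labelled and from 5568491 to 7360149 in the control-labelled group. The libraries went against their labels where injury miRNAs were checked: miR-21a-5p, which commonly rises in injured tissue, was 8.34-fold lower in the SCI-labelled libraries (edgeR quasi-likelihood adjusted p = 7.02e-05). The column headers of the SCI-labelled libraries also begin with Normal. Every direction below is therefore that of the labels as deposited. Control-labelled library 3 stood apart from the others of its group. Its skeletal muscle miRNAs summed to 73033 CPM, against 16337 and 23560 CPM in control-labelled libraries 1 and 2. CPM are counts scaled to a common library total, after that total is corrected by TMM as described below. The tissue label was checked with miR-10b-5p, made from a Hox cluster and typical of the trunk. It averaged 156415 ± 21772 CPM in SCI-labelled and 69517 ± 14384 CPM in control-labelled libraries (SD, n = 3 each).

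miR-9-5p was 1.50-fold higher in the SCI-labelled libraries, and miR-9-3p was not past the test. The balance of the arms, tested on its own, differed between the groups (edgeR diffSpliceDGE adjusted p = 0.00608; limma adjusted p = 0.0419). Reads of miR-9-5p per read of miR-9-3p were 33.0 ± 1.67 in SCI-labelled and 16.5 ± 3.92 in control-labelled libraries (SD, n = 3 each). Over all hairpins tested, a shift of this kind was common. Levels are CPM scaled by TMM, a method that corrects library totals for a few dominant rows. In whole tissue, fewer cells of a type and less RNA per cell cannot be told apart, and this holds for every level below.

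**Figure D1:**
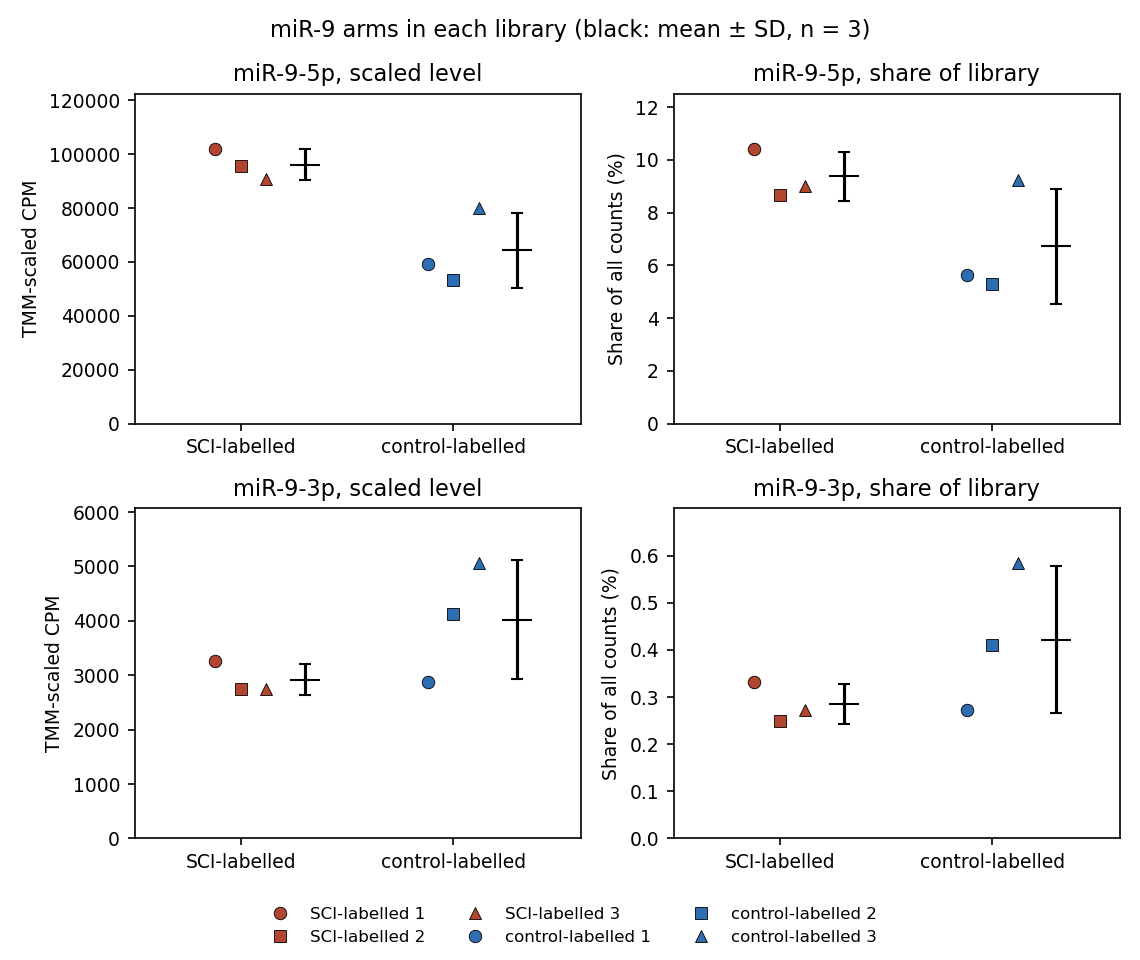
Level (TMM-scaled CPM, left) and share of all counts (%, right) of miR-9-5p (top) and miR-9-3p (bottom) in each library, SCI-labelled in red and control-labelled in blue, with the mean ± SD of 3 libraries in black. The scaled miR-9-5p level is at least 90727 CPM in each SCI-labelled library and no higher than 80049 CPM in a control-labelled one, while its share in control-labelled library 3 lies among the SCI-labelled shares.

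miR-9-5p, the dominant arm, stood at 102142, 95505 and 90727 CPM in SCI-labelled libraries 1, 2 and 3. In control-labelled libraries 1, 2 and 3 it stood at 59415, 53348 and 80049 CPM. Every SCI-labelled library was above every control-labelled one, and control-labelled library 3 was the highest of its group. The means were 96125 ± 5733 CPM in SCI-labelled and 64270 ± 13997 CPM in control-labelled libraries (SD, n = 3 each). The log2 fold change was 0.58 with a standard error of 0.20 and a 95% interval of 0.13 to 1.03. It passed the threshold of 0.05 narrowly, with an edgeR quasi-likelihood adjusted p of 0.0455 over 614 rows. Of those rows, 39.4% were past the same test, 16.3% on the higher side and 23.1% on the lower side. In 51.3% of rows the groups did not overlap. The call rested on all but 1 of the libraries: it held without control-labelled library 3, where the log2 fold change was 0.81 (edgeR adjusted p = 0.00102), and was lost without any other library. The adjusted p was then 0.143, 0.0863 and 0.112 without SCI-labelled library 1, 2 and 3, and 0.0689 and 0.149 without control-labelled library 1 and 2.

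As a share of all counts, miR-9-5p did not separate the groups. It took 10.4%, 8.68% and 9.01% of counts in SCI-labelled libraries 1, 2 and 3, against 5.63%, 5.29% and 9.24% in control-labelled libraries 1, 2 and 3. Control-labelled library 3 thus exceeded SCI-labelled libraries 2 and 3. Counting error does not bear on this order, since the 95% Wilson intervals reached at most 0.0213 percentage points to either side; such intervals cover counting error only. The mean shares were 9.37% ± 0.934 and 6.72% ± 2.19 in SCI-labelled and control-labelled libraries (SD, n = 3 each; exact two-sided permutation p = 0.3, where 0.1 is the smallest possible). The scaled level and the share part company in control-labelled library 3, whose TMM factor was 1.15, the largest of the 6, and in SCI-labelled library 2, whose factor was 0.909, the smallest. miR-9-5p had rank 2 among all rows in each SCI-labelled library, and ranks 3, 5 and 1 in control-labelled libraries 1, 2 and 3. It had rank 2 over the mean of the 6 libraries, behind miR-10b-5p and ahead of miR-21a-5p.

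miR-9-3p, the minor arm, was at 3254, 2750 and 2751 CPM in SCI-labelled libraries 1, 2 and 3 and at 2873, 4128 and 5056 CPM in control-labelled libraries 1, 2 and 3. The groups overlapped, because control-labelled library 1 was below SCI-labelled library 1. The means were 2918 ± 291 CPM in SCI-labelled and 4019 ± 1096 CPM in control-labelled libraries (SD, n = 3 each). The log2 fold change was -0.46 with a standard error of 0.23 and did not pass the test (edgeR adjusted p = 0.150). Its 95% interval ran from -0.98 to 0.06. The shares were 0.332%, 0.250% and 0.273% of counts in SCI-labelled and 0.272%, 0.410% and 0.583% in control-labelled libraries 1, 2 and 3 (means 0.285% ± 0.0426 and 0.422% ± 0.156, SD, n = 3 each; exact two-sided permutation p = 0.3). Wilson intervals reached at most 0.00553 percentage points to either side. The rank of miR-9-3p among all rows was 38 to 46 in the SCI-labelled and 34 to 49 in the control-labelled libraries.

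The arm ratio compares reads within a library and needs no scaling. SCI-labelled libraries 1, 2 and 3 held 824317, 616109 and 800867 miR-9-5p reads and 26259, 17740 and 24286 miR-9-3p reads. Control-labelled libraries 1, 2 and 3 held 371058, 294681 and 679793 miR-9-5p reads and 17941, 22803 and 42933 miR-9-3p reads. This gave 31.4, 34.7 and 33.0 reads of miR-9-5p per read of miR-9-3p in SCI-labelled libraries, against 20.7, 12.9 and 15.8 in control-labelled ones. The lowest SCI-labelled ratio was above the highest control-labelled ratio, and the SCI-labelled libraries lay closer together. On the log2 scale the ratios averaged 5.04 ± 0.07 in SCI-labelled and 4.02 ± 0.34 in control-labelled libraries (SD, n = 3 each), a difference of 1.03. The exact two-sided permutation p was 0.1, the smallest that 3 libraries against 3 allow.

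**Figure D2:**
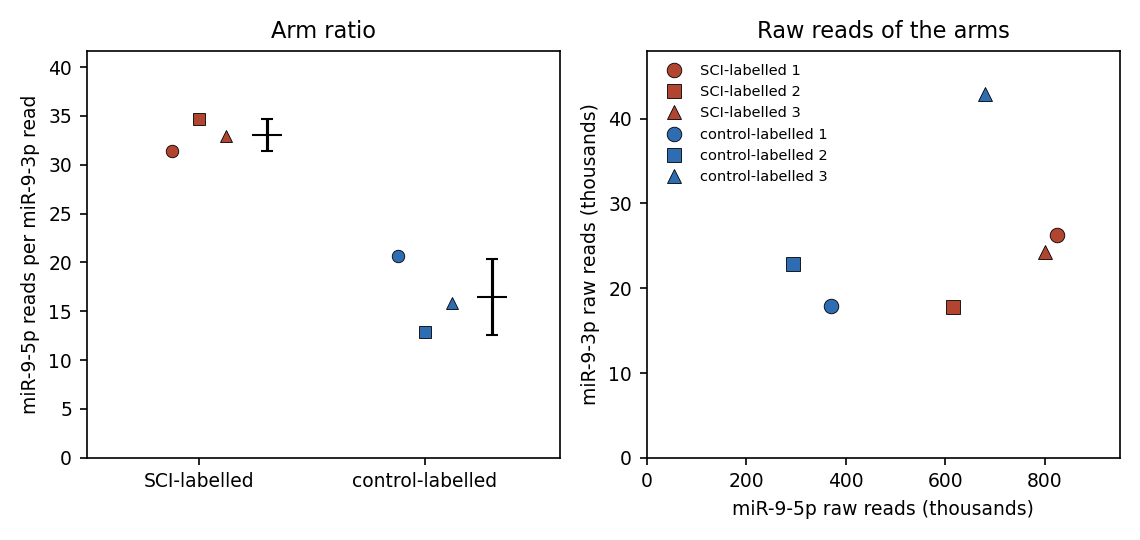
Reads of miR-9-5p per read of miR-9-3p in each library (left, with the mean ± SD of 3 libraries in black) and the raw reads of each arm (right). The SCI-labelled ratios run from 31.4 to 34.7 and the control-labelled ones from 12.9 to 20.7, and control-labelled library 3 has the most miR-9-3p reads, 42933.

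Seen from the minor arm, miR-9-3p made up 3.09%, 2.80% and 2.94% of the reads of both arms in SCI-labelled libraries 1, 2 and 3. In control-labelled libraries 1, 2 and 3 it made up 4.61%, 7.18% and 5.94%. The Wilson intervals reached at most 0.0903 percentage points to either side, so that counting error was small beside the distance between any SCI-labelled and any control-labelled library. Control-labelled library 3, which stood high for both arms, was between the other libraries of its group here. Without it the difference of the log2 ratios was 1.01, and leaving out any library in turn gave 0.87 to 1.21. Both arms together took 9.66% ± 0.977 of counts in SCI-labelled and 7.14% ± 2.32 in control-labelled libraries (SD, n = 3 each; exact two-sided permutation p = 0.3).

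Arm usage was also tested over the 179 hairpins with both arms kept and paired by name. Arms whose names differ by a hairpin number, such as miR-129-5p and miR-129-2-3p, were not paired. For miR-9 the log2 ratio differed by 1.04 in the fitted model, toward the 5p arm, and passed the test (edgeR diffSpliceDGE adjusted p = 0.00608). That test passed 30.2% of hairpins, and in 41.3% of hairpins the groups did not overlap. A limma fit on the log2 ratios, which made fewer false calls on simulated data, also called miR-9 (difference 1.03, limma adjusted p = 0.0419) and called 15.1% of hairpins. The diffSpliceDGE call of miR-9 held without each library in turn, with adjusted p-values from 0.00082 to 0.0471. The limma fit was not repeated without single libraries. By size the miR-9 shift had rank 46 of 179, while its hairpin had rank 2 by abundance. Of the 54 hairpins called by diffSpliceDGE, 29 moved toward 5p and 25 toward 3p. An arm shift past the test was thus not particular to miR-9. In 32 of the 54, miR-9 included, the estimated log2 fold changes of the arms had opposite signs. For miR-9 this rested on miR-9-3p, whose own change did not pass the edgeR test and had a 95% interval of -0.98 to 0.06. The diffSpliceDGE test selects hairpins whose arms differ, and opposite signs were not counted over all 179 hairpins. Whether they were more frequent among the called hairpins was not tested.

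**Figure D3:**
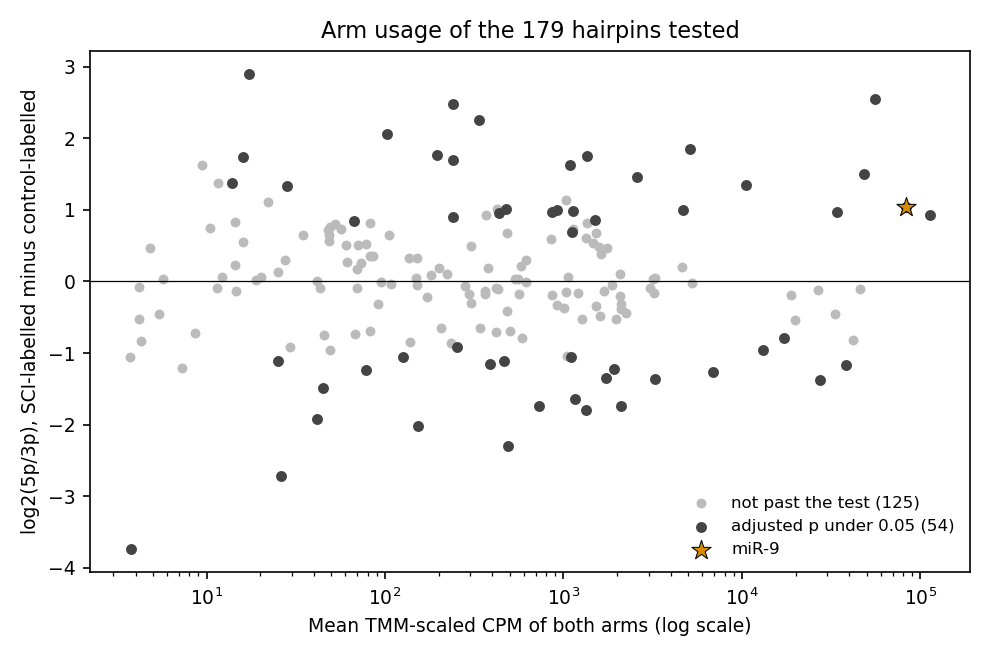
Difference of log2(5p/3p), SCI-labelled minus control-labelled, for each of the 179 hairpins against the mean CPM of both arms (log axis), with hairpins past the diffSpliceDGE test in dark grey, the others in light grey and miR-9 as a star. miR-9, at 1.04, is among the most abundant hairpins, and called hairpins lie on both sides of 0.

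Other neural hairpins gave the following shifts. miR-132 and miR-212, which share a transcript induced by neuronal activity, both moved toward 5p, by 1.63 and 1.76 on the log2 scale (edgeR diffSpliceDGE adjusted p = 0.00139 and 0.00108; limma 0.00888 each). For miR-124, the most characteristic miRNA of neurons, the shift was 1.14 and was called by limma (adjusted p = 0.0307) and not by diffSpliceDGE (0.0855). miR-137 had a shift of -0.09, not past either test (diffSpliceDGE adjusted p = 0.958; limma 0.777). These are the 4 hairpins of the neuron list whose arms were paired. The rest of that list, which includes miR-128, miR-218, miR-7a and miR-129, was not tested for arm usage. Of the 4 paired, 2 were past the diffSpliceDGE test, both toward 5p. Of 4 glial hairpins so paired 2 were past it, both toward 5p, miR-29a by 0.99 (adjusted p = 0.0330) and miR-29c by 1.69 (0.0191). The limma fit called neither (adjusted p = 0.0810 and 0.0890). Past neither test were miR-219b, with a shift of 0.54 (diffSpliceDGE adjusted p = 0.473, limma 0.875), and miR-338, with -0.49 (diffSpliceDGE 0.249, limma 0.284). Over all 179 hairpins diffSpliceDGE passed 30.2%, with 16.2% toward 5p. With 4 hairpins per list, the counts are too few to set against these shares.

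miR-9-5p was set beside 18 neuron miRNAs, all of them tested. Of these, 9 were higher, 1 lower and 8 not past the edgeR test, with a median log2 change of 0.77, against 100 higher and 142 lower of 614 rows and a median of -0.07 over all rows. The counts rested partly on single libraries: without SCI-labelled library 3, 6 were higher and 0 lower, and without control-labelled library 3, 12 were higher and 1 lower. The calls over all rows moved too, to 54 higher and 87 lower without SCI-labelled library 3 and to 152 higher and 179 lower without control-labelled library 3. The 5 most abundant were miR-218-5p of motor neurons, miR-7a-5p, miR-128-3p, miR-7b-5p and miR-129-5p. miR-128-3p, which restrains neuronal excitability, was at 12777, 10943 and 12258 CPM in SCI-labelled and 4462, 4854 and 3733 CPM in control-labelled libraries 1, 2 and 3, with no overlap. Its log2 fold change was 1.46 (edgeR adjusted p = 0.000576). miR-218-5p had 1.42 (0.0013), miR-129-5p 1.26 (0.00157), miR-7b-5p 0.76 (0.00812) and miR-7a-5p 0.44 (0.0843, not past the test). miR-212-3p alone was called lower, at -0.91 (0.0318).

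**Figure D4:**
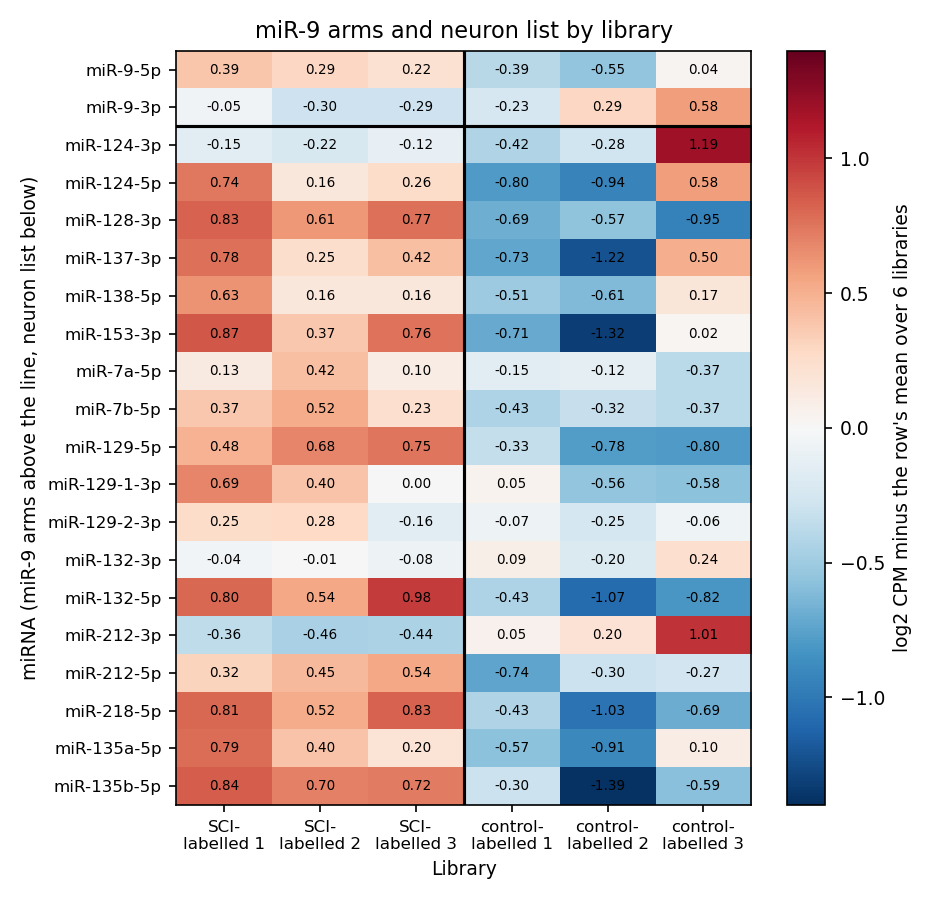
Log2 CPM of each miR-9 arm (above the line) and of the 18 neuron miRNAs (below it) in each library, minus the row's mean over 6 libraries; red is above and blue below that mean. In control-labelled library 3 miR-9-3p is 0.58 and miR-124-3p 1.19 above its own mean, while miR-128-3p is 0.95 below its own.

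The neuron list summed to 57878, 55371 and 57158 CPM in SCI-labelled libraries 1, 2 and 3 and to 30719, 27666 and 28238 CPM in control-labelled libraries 1, 2 and 3. The level of miR-9-5p alone exceeded that sum in every library. Per CPM of the summed list it had 1.76, 1.72 and 1.59 CPM in SCI-labelled and 1.93, 1.93 and 2.83 CPM in control-labelled libraries 1, 2 and 3. The means were 1.69 ± 0.0931 and 2.23 ± 0.522 in SCI-labelled and control-labelled libraries (SD, n = 3 each; exact two-sided permutation p = 0.1, the smallest possible), and the groups did not overlap. A few rows set this sum: miR-218-5p, miR-7a-5p and miR-128-3p made up 82.9% of it in SCI-labelled and 79.5% in control-labelled libraries. Row by row, the ratio of the mean CPM, SCI-labelled over control-labelled, was larger than that of miR-9-5p for 13 of the 18 and smaller for 5, miR-7a-5p, miR-129-2-3p, miR-132-3p, miR-124-3p and miR-212-3p. miR-9-3p came to 5.13% ± 0.429 of the summed list in SCI-labelled and 14.1% ± 4.34 in control-labelled libraries (SD, n = 3 each; exact two-sided permutation p = 0.1, the smallest possible).

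miR-124-3p, the partner of miR-9-3p in neuronal differentiation, was at 798, 756 and 812 CPM in SCI-labelled and 660, 725 and 2008 CPM in control-labelled libraries 1, 2 and 3. The control-labelled values lay on either side of the SCI-labelled ones, and it did not pass the test (log2 fold change -0.52, edgeR adjusted p = 0.339). There were 128, 126 and 112 reads of miR-9-5p per miR-124-3p read in SCI-labelled and 90.0, 73.5 and 39.9 in control-labelled libraries 1, 2 and 3. For miR-9-3p there were 4.08, 3.64 and 3.39 per miR-124-3p read in SCI-labelled and 4.35, 5.69 and 2.52 in control-labelled libraries. The groups did not overlap in the miR-9-5p ratio and overlapped in the miR-9-3p ratio. Groups without overlap were common, in 51.3% of all rows by level and 41.3% of hairpins by arm ratio. Neither ratio to miR-124-3p was tested. The lowest miR-9-5p ratio was that of control-labelled library 3, where miR-124-3p was highest.

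Of 8 glial miRNAs, 0 were past the edgeR test, which passed 39.4% of all rows, and 0 had an unadjusted edgeR p under 0.05. The calls were 0 as well by DESeq2 and by limma voom. Without control-labelled library 3, edgeR called 3 of them higher, in a fit that called 152 rows higher in all. miR-219a-2-3p, the most abundant of the list, averaged 9228 ± 536 CPM in SCI-labelled and 8765 ± 1644 CPM in control-labelled libraries (SD, n = 3 each). miR-29a-3p, found in astrocytes, averaged 4493 ± 622 CPM in SCI-labelled and 4812 ± 1876 CPM in control-labelled libraries, and miR-219b-5p 1325 ± 79.4 CPM in SCI-labelled and 1343 ± 339 CPM in control-labelled libraries. The glia list's median log2 change was -0.06.

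Markers of other cell types differed between the same libraries, and their counts stand beside 16.3% of all rows called higher and 23.1% called lower. All 9 leukocyte miRNAs were tested, 8 were lower, and the list summed to 1414 to 1731 CPM in SCI-labelled and 3315 to 5261 CPM in control-labelled libraries. All 6 erythroid miRNAs with a row were lower, and their sum was 3024 to 6331 CPM in SCI-labelled and 14025 to 43094 CPM in control-labelled libraries. All 5 fibroblast miRNAs with a row were lower, and their sum was 600 to 1124 CPM in SCI-labelled and 1932 to 3515 CPM in control-labelled libraries. Of 7 skeletal muscle miRNAs 1 was higher and 6 did not pass, and their sum was 19258 to 40362 CPM in SCI-labelled and 16337 to 73033 CPM in control-labelled libraries. The endothelial pair did not pass, and its sum was 16412 to 18789 CPM in SCI-labelled and 12211 to 28514 CPM in control-labelled libraries. No marker with a row was at 0 in any library. With the erythroid, muscle and leukocyte rows and miR-21a-5p left out before scaling, miR-9-5p had a log2 fold change of 0.57 (edgeR adjusted p = 0.0474) and miR-9-3p -0.48 (0.138). The shares of the remaining counts moved more: the difference, SCI-labelled minus control-labelled, was then 1.61 percentage points for miR-9-5p, against 2.66 with all rows (exact two-sided permutation p = 0.4 and 0.3). For miR-9-3p it was -0.22 percentage points, against -0.14 with all rows (exact two-sided permutation p = 0.2 and 0.3). The part of these cell types in the miR-9 values was otherwise not tested.

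The rows most like each arm were found among 268 other rows of at least 50 CPM. Likeness was the root mean square difference of log2 CPM over the 6 libraries after subtracting each row's mean, a description over points that share their libraries. Closest to miR-9-5p were miR-411-5p (0.08), miR-181d-5p (0.12), miR-3068-5p (0.12), miR-127-5p (0.13) and miR-30c-5p (0.14), against a median of 0.51 over all rows compared. miR-411-5p, from the imprinted cluster of chromosome 12, averaged 1009 ± 42.5 CPM in SCI-labelled and 624 ± 97.4 CPM in control-labelled libraries (SD, n = 3 each). Closest to miR-9-3p were miR-484 (0.10), miR-107-3p (0.14), miR-872-5p (0.15), miR-708-5p (0.18) and miR-194-5p (0.18), against a median of 0.60. miR-484 averaged 98.7 ± 14.3 CPM in SCI-labelled and 132 ± 28.5 CPM in control-labelled libraries (SD, n = 3 each). The arms of miR-9 themselves were 0.55 apart, which gave miR-9-3p rank 152 of the 268 for miR-9-5p and miR-9-5p rank 119 for miR-9-3p.

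**Figure D5:**
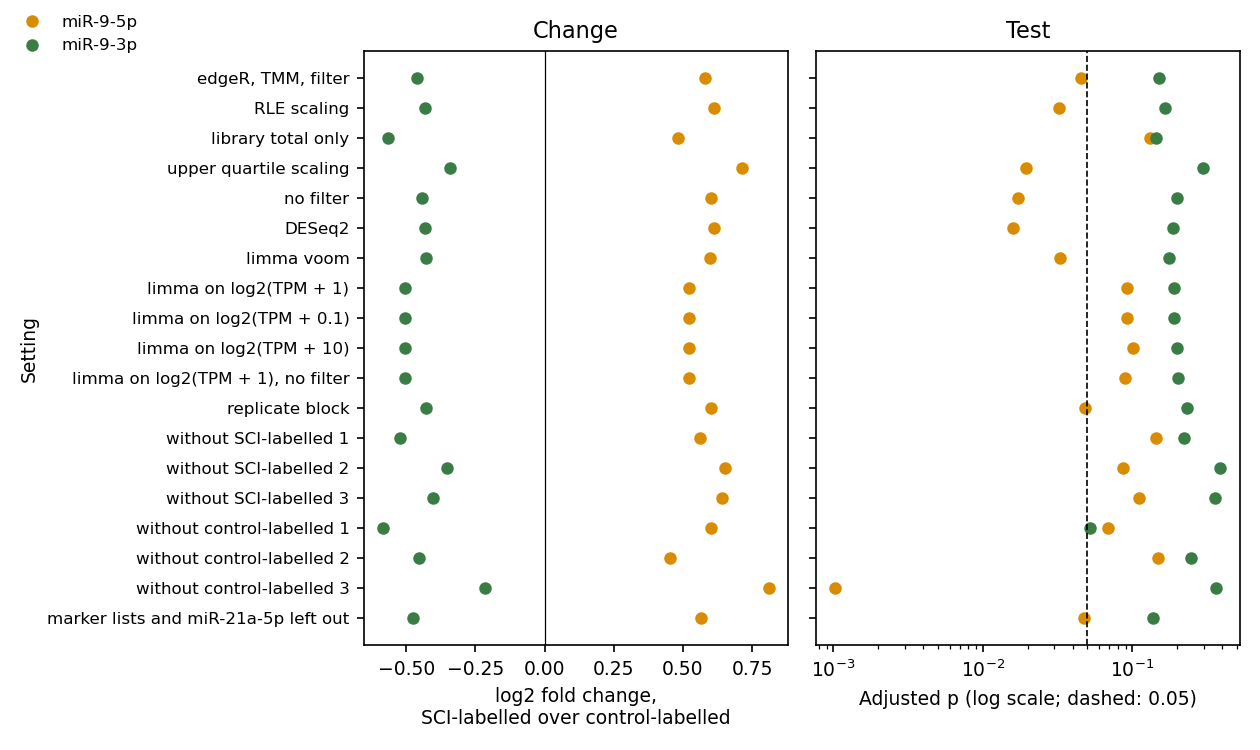
Log2 fold change, SCI-labelled over control-labelled (left), and adjusted p on a log axis (right) of miR-9-5p and miR-9-3p under the edgeR fit with TMM scaling and 18 alternatives; the dashed line marks 0.05. miR-9-5p is above 0 and miR-9-3p below 0 under all of them, and miR-9-5p lies between 0.45 and 0.81.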

How the data were processed

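Small RNA was sequenced from 6 spinal cord pieces with the NEBNext small RNA kit, per the labels' protocols. The authors deposited read counts without normalization and a column named TPM, which equals CPM of the column total to within 2.74e-05. Alignment tool and build, per the submitters' processing notes, were Bowtie (no version) and mm10. The sources used here say nothing of mismatches, strand, the miRBase release or reads that match several hairpins.

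All 12 value columns were mapped to samples. The sample descriptions name the count columns, and each TPM column shares its name with a count column up to the ending. The count test was run with edgeR 4.0.16 in R 4.3.3: filterByExpr (minimum count 10, 614 rows kept), TMM scaling, robust quasi-likelihood F test on group, Benjamini-Hochberg over all rows, threshold 0.05. The standard error of a log2 fold change is its size divided by the square root of F. Arm usage was tested with diffSpliceDGE and with limma 3.58.1 on log2((5p + 0.5)/(3p + 0.5)). In 10 draws of simulated data with known changes, 12.7% of diffSpliceDGE calls and 6.87% of limma calls were unshifted hairpins. Both are above the threshold, diffSpliceDGE by more, so both tests are given. The simulated shifts were 4-fold, and the arms of a hairpin were drawn independently. DESeq2 1.42.0 was an alternative. Shares and ratios were compared by exact permutation of libraries. Every pair of libraries differed by more than sampling noise. Libraries with the same replicate number in their titles did not deviate together, and a pairing by the numbers in the column headers was not tested. The members, lists and naming rule were chosen with earlier results of these data known. Named were both arms, the 5 most abundant neuron and 3 most abundant glia miRNAs, the 5 rows most like each arm, the most abundant rows and the marker checks. Arm shifts are given for the listed hairpins with both arms kept and paired by name. Sequences are RefSeq's on GRCm38.p6 and positions of host genes are from GENCODE M21 on GRCm38 (mm10).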

Additional observations from a re-analysis of the deposited data

How the results depend on the processing

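The log2 fold change stayed positive for miR-9-5p and negative for miR-9-3p under all 18 alternatives run, but miR-9-5p no longer passed the test under 10 of them. With the library total only its log2 fold change was 0.48 (edgeR adjusted p = 0.131). With limma on log2(TPM + pseudocount) it was 0.52 at pseudocounts of 1, 0.1 and 10 and over all rows (limma adjusted p = 0.0927, 0.0925, 0.102 and 0.0890). Leaving out 1 library gave 0.45 to 0.81 for miR-9-5p and -0.58 to -0.22 for miR-9-3p, which passed under none (adjusted p 0.0518 to 0.388 over its 18 alternatives); DESeq2 and limma voom gave it 0.187 and 0.176. Relative to TMM, under which the median over all rows was -0.07, the library total moved that median to -0.15 and the upper quartile to 0.04. The arm ratio and the shares kept their direction under every alternative run: leaving out 1 library gave 0.87 to 1.21 for the log2 arm ratio (0.91 to 1.18 in the hairpin test), and 1.94 to 3.91 and -0.21 to -0.06 percentage points for the shares of miR-9-5p and miR-9-3p. Without the erythroid, muscle and leukocyte rows and miR-21a-5p these were 1.61 and -0.22, against 2.66 and -0.14 with all rows.

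The hairpins called were 27 with limma and ran from 29 to 71 with 1 library left out. The rows called over the table ran from 141 to 331, the neuron miRNAs called from 6 to 13 and the glial ones from 0 to 3. Libraries with the same replicate number in their titles did not deviate together (correlations -0.27, 0.19 and -0.18). The column headers number the control-labelled libraries differently, and a pairing by header number was not tested. With the replicate block miR-9-5p had 0.60 (edgeR adjusted p = 0.0481), miR-9-3p -0.43 (0.231) and the hairpin test 1.03 (0.0221). In those fits 190 rows, 46 hairpins and 8 neuron miRNAs were called. With 3 libraries per group no permutation test could pass 0.05. Depth was not the limit for either arm; the spread between libraries was.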
